A study of Mus musculus with 30 samples.

Results

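The genes described here are the nuclear-encoded subunits of the mitochondrial respiratory chain and of the ATP synthase in mouse microglia. They were chosen by name and not by how they differed between groups: gene symbols that start with Ndufa, Ndufb, Ndufc, Ndufs or Ndufv (NADH dehydrogenase, complex I), *Sdha* to *Sdhd* (succinate dehydrogenase, complex II), Uqcr and *Cyc1* (cytochrome c reductase, complex III), Cox4 to Cox7 and *Cox8a* (cytochrome c oxidase, complex IV) and Atp5 (ATP synthase, complex V), without the Ndufaf assembly factors, pseudogenes named so and *Cox8b*. Of 47643 genes in the deposited table, 47224 had a symbol, 88 matched these names and 84 of them were protein-coding. The 80 with a mean of at least 1 FPKM (fragments per unit of transcript length and per mapped fragment) were kept. They comprise 36 genes of complex I, 4 of complex II, 9 of complex III, 14 of complex IV (with *Ndufa4*, now placed in this complex, and *Cox7a2l*, a supercomplex factor) and 17 of complex V. The 4 protein-coding genes under the limit were *Ndufa4l2* (listed at 0), *Cox7b2* (0.0159 FPKM), *Cox4i2* (0.0317 FPKM) and *Cox7a1* (0.563 FPKM), and the lowest genes kept were *Cox6b2* (2.27 FPKM) and *Cox6a2* (2.69 FPKM).

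The study asked how loss of *Bin1*, a membrane-shaping adaptor gene linked to Alzheimer's disease, alters the microglial transcriptome. Microglia (CD11b+ CD45med) were sorted from the brains of 3 month-old mice without cerebellum and olfactory bulbs, and the RNA of each mouse was sequenced as 1 library. Homo mice carried *Bin1* flox/flox with *Cx3Cr1-Cre* (5 males, 5 females), Het mice carried *Bin1* wt/flox with *Cx3Cr1-Cre* (6 males, 5 females), and WT mice were *Bin1* wt/flox without Cre (5 males, 4 females). Cre sat in the *Cx3cr1* locus, so every Cre-positive group had also lost a copy of *Cx3cr1*, and loss of the first *Bin1* copy cannot be told apart from the Cre allele. Libraries are named by genotype, sex and mouse number, as in Homo-M-0109.

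The respiratory chain hands electrons from NADH (complex I) and succinate (complex II) through complex III to oxygen at complex IV, and the ATP synthase uses the proton gradient built by complexes I, III and IV to make ATP. Complexes I, III, IV and V combine subunits encoded in the nucleus with others encoded in mitochondrial DNA, whereas complex II is wholly nuclear. Microglia can draw on both respiration and glycolysis, and the balance between them is known to shift with their state of activation.

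*Bin1* was at 228.4–286 scaled FPKM in WT males and 39.9–52.7 in Homo males, and at 250–281 in WT females and 40.7–44.9 in Homo females. Scaled FPKM are the deposited FPKM divided by a size factor for each library. Het males were at 52.4–166 and Het females at 43.0–167, with Het-M-0199 and Het-F-0206 at the level of Homo mice. *Cx3cr1* was at 13.98 scaled FPKM in Het-F-0206 and at 532 or more in every other library. All 10 microglial markers were detected, with sums of 17206–29325 scaled FPKM. In Homo against WT males none of the 10 passed limma's test. *Cx3cr1*, 1 of the 10, was nevertheless at 1807–2444 scaled FPKM in WT and 661–1144 in Homo males, without overlap. The spread used in that test is shared by all 6 groups and includes Het-F-0206. In the same contrast 4 of 7 neutrophil markers tested were lower (*Lcn2*, *Ltf*, *Ngp*, *S100a9*). The neutrophil sum was 46.3–347 scaled FPKM in WT males and 0–73.5 in Homo males, where *Ly6g* and *Retnlg* were at 0 in every library. Sums of 4 other lists had different ranges in WT and Homo males, with no gene of these lists called and with overlap in all but the astrocyte sum. They were 0.164–283 (median 76.4) and 0.361–20.8 (median 11.1) for 4 choroid plexus markers, 14.3–44.6 (median 39.0) and 11.3–24.5 (median 20.0) for 6 border macrophage markers, 0–39.7 (median 0.258) and 9.62–57.7 (median 31.1) for 4 erythroid markers, and 70.5–77.7 and 85.3–106 for 5 astrocyte markers. The part of these markers in the differences described here was not tested. The male Cre-positive libraries fall into early mouse numbers (Homo-M-0093, Homo-M-0097, Homo-M-0109, Het-M-0100 and Het-M-0108) and late ones (2 Homo, 4 Het), whereas all WT males have late numbers. Summed levels of 7 nuclear retained lncRNAs, most of it *Malat1*, were 7818–11311 scaled FPKM in the 5 early Cre-positive males, 2834–7480 in the 6 late ones and 3159–5776 in WT males. Over the 26 shortest genes of the chain the median deviation from the mean of the gene was highest in Homo-M-0109 (0.63 on the log2 scale) and Het-M-0203 (0.55). Some medians, counts of calls and the *Uqcrc1* difference are also given without 1 of these libraries. The fitted differences of other single genes include both.

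The results turn most on *Uqcrc1* (chr9:108936633-108949623, plus strand), *Ndufb4* (chr16:37647170-37654453, minus strand) and *Atp5b* (chr10:128083273-128090391, plus strand), with positions on GRCm38. Their promoters are shown because *Uqcrc1* was the one gene of the chain that passed the test between Homo and WT males, *Ndufb4* had the largest fitted difference there and *Atp5b* had the highest level. The 1 call is 1.25% of the chain, against 2.82% of all genes. Each sequence, from RefSeq (GRCm38.p6), is the stretch that precedes both the RefSeq and the GENCODE start of the gene, from chr9:108936398-108936632 (plus strand), chr16:37654454-37654618 (minus strand) and chr10:128083057-128083272 (plus strand). Capitals mark matches to the letters searched.

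Uqcrc1: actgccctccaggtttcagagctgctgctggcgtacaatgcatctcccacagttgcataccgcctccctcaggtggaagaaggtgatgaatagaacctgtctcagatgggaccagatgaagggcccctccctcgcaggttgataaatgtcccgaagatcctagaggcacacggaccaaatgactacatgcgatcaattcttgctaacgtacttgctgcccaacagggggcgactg

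Ndufb4: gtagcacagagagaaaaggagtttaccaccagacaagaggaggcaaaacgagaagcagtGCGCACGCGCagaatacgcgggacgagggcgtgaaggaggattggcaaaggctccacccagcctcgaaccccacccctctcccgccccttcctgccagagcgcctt

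Atp5b: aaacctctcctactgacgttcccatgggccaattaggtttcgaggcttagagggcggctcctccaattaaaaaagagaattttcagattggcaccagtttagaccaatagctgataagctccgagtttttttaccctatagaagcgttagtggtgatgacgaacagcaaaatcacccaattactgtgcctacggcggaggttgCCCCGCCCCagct

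The letters searched on both strands, in the 250 bases before each RefSeq start, were those of NRF1 (GCGC and TGCGC separated by 1 base), a factor known to bind promoters of respiratory chain genes, of ETS factors such as GABPA (CCGGAAG), of YY1 (AAGATGGCG), of CREB (TGACGTCA) and of Sp1 (GGGGCGGGG). The *Ndufb4* window held 3 NRF1 matches, beginning 191, 79 and 22 bases before the RefSeq start, of which the first lies in the stretch shown. *Atp5b* held 1 Sp1 match, 47 bases before the start, and *Uqcrc1* held no match to any of the 5. A window was available for 66 of the 80 genes, 2 of them found by an older symbol. Of these 66, 12 (18.2%) held an NRF1 match, against 8.49% of 10061 promoters. The 10061 are those of the protein-coding genes tested for which a window was found, these 66 included. ETS letters were in 11 (16.7%, against 14.4%), Sp1 letters in 10 (15.2%, against 20.0%), CREB letters in 4 (6.06%, against 2.75%) and YY1 letters in none (against 1.15%). A match says only that the letters are there, and no match says nothing of the factor.

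Respiratory chain genes were among the well expressed genes of these microglia. Their median level, averaged over the 30 libraries, was 70.3 scaled FPKM, which corrects for transcript length, against 9.85 for all protein-coding genes tested, and 91.3% of protein-coding genes lay below the median of the chain. *Atp5b*, the catalytic beta subunit of the ATP synthase head, was the highest at 213 scaled FPKM, followed by *Cox4i1* (177.9), the largest nuclear-encoded subunit of complex IV. By complex, the median level was 50.2 scaled FPKM in complex I, from *Ndufa11* (12.3) to *Ndufb8* (141). It was 92.4 in complex II, from the membrane anchor *Sdhc* (38.7) to the flavoprotein *Sdha* (100.0), and 78.4 in complex III, from the Rieske iron-sulfur protein *Uqcrfs1* (43.8) to *Uqcrb* (154). Complex IV had a median of 90.9 and complex V of 87.6, the latter from the coupling factor B gene *Atp5s* (14.5) to *Atp5b*.

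**Figure D1:**
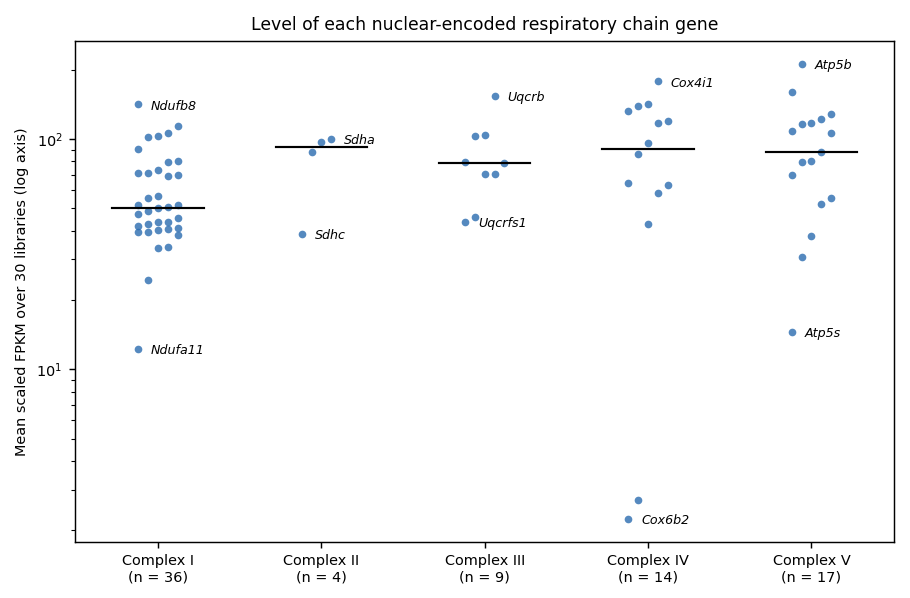
Mean level of each of the 80 genes over the 30 libraries, in scaled FPKM on a log axis, by complex, with 1 point per gene. Medians lie between 50.2 in complex I and 92.4 in complex II, and *Cox6b2* (2.24) and *Cox6a2* sit far under the other genes of complex IV.

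Isoforms of complex IV subunits differed widely in level. *Cox4i1* was at 165, 124, 127, 228.02 and 224 scaled FPKM in WT males, at 146–279 (median 194) in Het males and at 179, 187, 281, 178.2 and 175 in Homo males. In females it was at 175, 151, 148 and 174 in WT, at 181, 179, 147, 137 and 147 in Het and at 168, 192.7, 181, 155 and 132 in Homo mice. Within each sex the groups overlapped, and the difference between Homo and WT males was 0.23 on the log2 scale (adjusted p = 0.426 in limma's test with Benjamini-Hochberg adjustment), while its paralog *Cox4i2*, induced by low oxygen in other tissues, was under the limit. *Cox6a1*, the isoform found in most tissues, was at 165, 127, 122.1, 148 and 198.8 in WT males, 111–180 (median 138) in Het males and 97.1, 122.3, 139, 155 and 140 in Homo males. In females *Cox6a1* was at 130, 145, 143 and 133 in WT, 131, 159, 141, 134 and 148 in Het, and 141, 145, 146, 139 and 136 in Homo mice. The muscle isoform *Cox6a2* stayed under 7 scaled FPKM in every library and is described with the females. *Cox7a2* was at 56.8, 45.6, 42.4, 68.0 and 78.2 in WT males, 46.9–119 (median 78.2) in Het males and 73.1, 66.6, 104, 63.1 and 65.6 in Homo males. In females *Cox7a2* was at 58.5, 48.3, 48.1 and 50.8 in WT, 59.7, 64.6, 53.1, 48.8 and 51.4 in Het, and 61.0, 65.1, 59.9, 47.5 and 46.4 in Homo mice, and its muscle paralog *Cox7a1* was under the limit. *Ndufa4* was at 108.8, 97.4, 84.6, 163 and 128 in WT males, 98.2–245 (median 160) in Het males and 164, 161, 262, 119 and 128 in Homo males. Female values of *Ndufa4* were 136, 98.7, 96.3 and 116 in WT, 112, 138, 100.0, 103 and 93.7 in Het, and 128, 118, 105, 98.5 and 99.6 in Homo mice. Within each sex the groups overlapped in *Cox6a1*, *Cox7a2* and *Ndufa4*, and in Homo against WT males the log2 differences were −0.21 for *Cox6a1* (adjusted p = 0.299), 0.37 for *Cox7a2* (0.236) and 0.50 for *Ndufa4* (0.165).

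*Cox6b2*, described from testis, was the lowest gene kept. It was at 2.16, 1.99, 1.71, 2.22 and 1.95 scaled FPKM in WT males, 0.499–3.85 (median 2.86) in Het males and 3.62, 1.51, 3.16, 1.17 and 1.97 in Homo males. Females had 1.99, 3.73, 1.58 and 2.24 in WT, 3.21, 0.714, 3.03, 1.51 and 2.54 in Het, and 1.74, 1.61, 3.66, 1.99 and 1.18 in Homo mice. Its WT males were the tightest group and lay inside the range of every other group, and its highest value was 7.72 times its lowest.

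How tightly a gene was held across mice went with its length. The median SD within groups was 0.22 on the log2 scale over the 80 genes, against 0.21 over the 6455 genes with at least 10 scaled FPKM. It was 0.28 in the 26 shortest genes (371–680 bases), 0.20 in the 27 of middle length and 0.19 in the 27 longest (1166–4715 bases). Across the 80 genes, the SD and transcript length had a Spearman rho of −0.448, against −0.031 over 6251 protein-coding genes of at least 10 scaled FPKM. Genes of 1 chain share the same libraries and are not independent replicates. *Uqcrfs1* (highest over lowest library 1.41), the flavoprotein subunit *Ndufv1* (1.46) and the core subunit *Ndufs3* (1.47) were the steadiest, and *Ndufb4* (4.73), the epsilon subunit *Atp5e* (4.43) and the c subunit *Atp5g2* (4.35) varied most after *Cox6b2* and *Cox6a2*. The spread was present among WT males alone. The median deviation of all 80 genes was −0.30 in WT-M-0178 and −0.23 in WT-M-0177 but 0.24 in WT-M-0202 and 0.27 in WT-M-0258, and the summed level of the chain ran from 4839 to 7171 scaled FPKM in this group. The 4 WT females lay between 5416 and 6033.

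**Figure D2:**
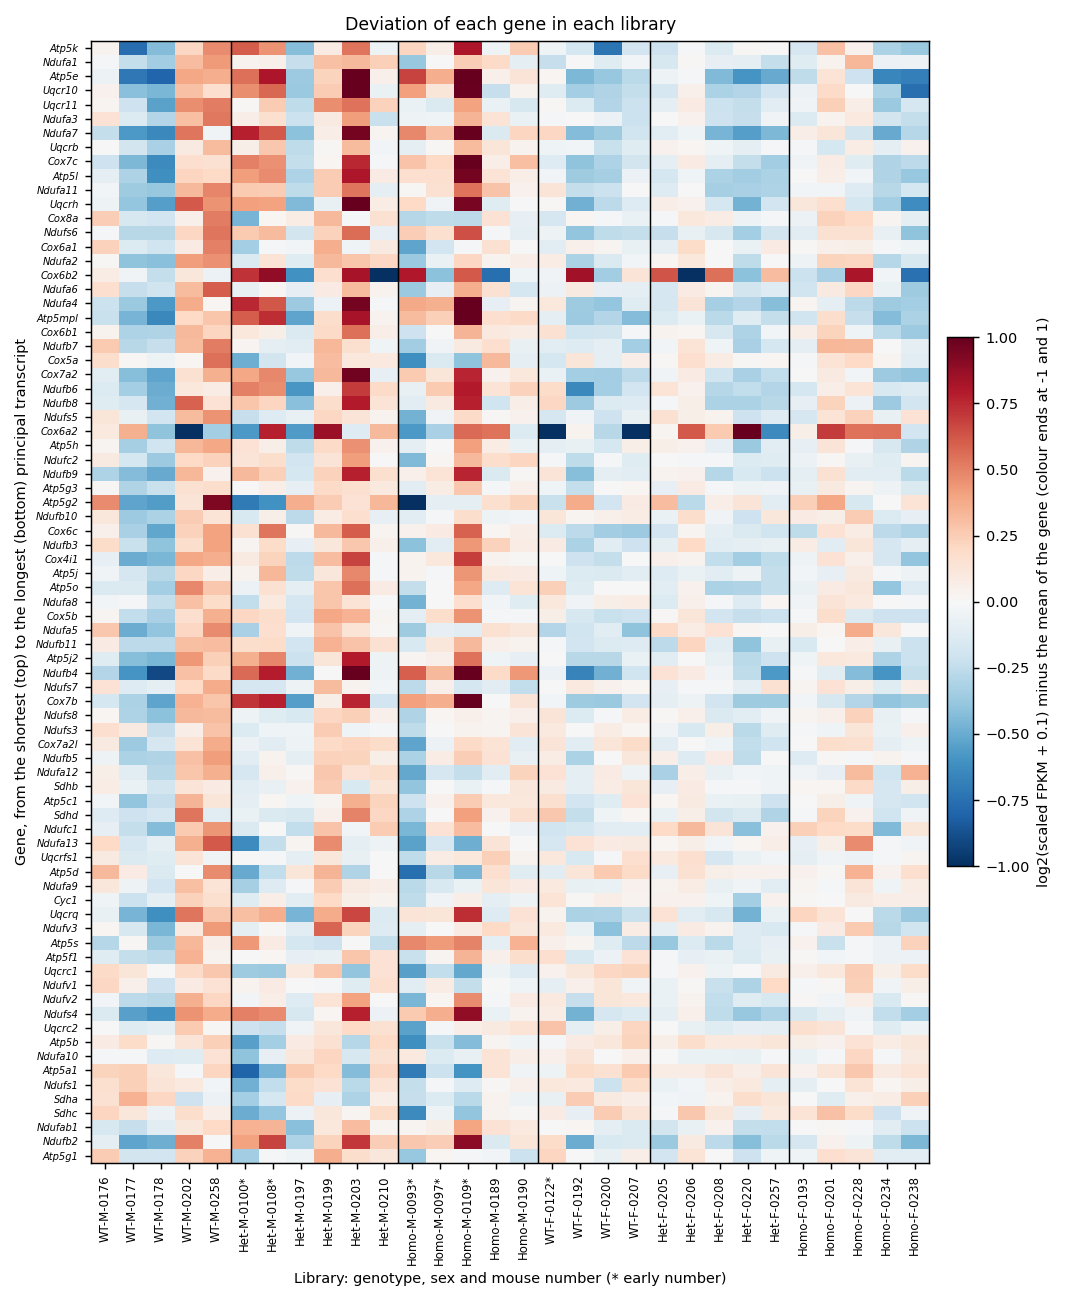
Deviation of log2(scaled FPKM + 0.1) from the mean of the gene, for 79 of the 80 genes ordered from the shortest (371 bases, top) to the longest (4715 bases, bottom) in the 30 libraries. The upper rows are high in Homo-M-0109, Het-M-0203 and WT-M-0258 and low in WT-M-0177 and WT-M-0178, and the lower rows vary less.

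In Homo against WT males, *Uqcrc1* was lower and the other 79 genes did not pass the test. Lower calls were thus 1.25% of the chain, against 1.27% of all genes. Calls in either direction were also 1.25% of the chain, against 2.82% of all genes. *Uqcrc1* encodes core protein 1 of complex III, a large matrix subunit related to the peptidases that cut mitochondrial targeting sequences. It was at 118, 112, 104, 118 and 125 scaled FPKM in WT males and at 70.9, 87.2, 72.6, 99.5 and 94.6 in Homo males. All Homo males were under all WT males, which held for no other gene of the chain and for 1.75% of all genes tested, and no gene of the chain had all Homo males above all WT males, as 2.25% of all genes did. Het males ran from 78.4 to 126 (median 95.4), with Het-M-0100, Het-M-0108 and Het-M-0203 near 80 and the other mice inside or near the WT range. The fitted log2 fold change of Homo against WT males was −0.45 (SE 0.113, adjusted p = 0.0309 by limma with Benjamini-Hochberg adjustment over 16897 genes). The call was lost without Homo-M-0093 (−0.39, adjusted p = 0.112), Homo-M-0109 (−0.40, adjusted p = 0.103), Homo-M-0097, WT-M-0176, WT-M-0177 or WT-M-0258 (−0.46 to −0.42, adjusted p = 0.0565 to 0.0700 by limma). The p-value rests on a spread between mice that was estimated from all 6 groups together. In bulk libraries, fewer cells of a type and less RNA per cell cannot be told apart.

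The early and late mouse numbers bear on this value. The early Homo males had 70.9, 87.2 and 72.6, and the late ones had 99.5 and 94.6, all under the lowest WT male (104). With late mice alone, *Uqcrc1* differed by −0.25 (adjusted p = 0.642), and by −0.26 once the number range was a term of the fit (adjusted p = 0.416). No WT male had an early number, so the contrast within early mice could not be computed. In females, WT mice had 107, 112, 120 and 121, Het mice had 103, 106, 99.5, 104 and 110, and Homo mice had 107, 111, 123, 107.8 and 118. The female groups overlapped, and the difference of Homo from WT was −0.02 on the log2 scale. The difference between the male and female contrasts was −0.43 (SE 0.165, adjusted p = 0.526).

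**Figure D3:**
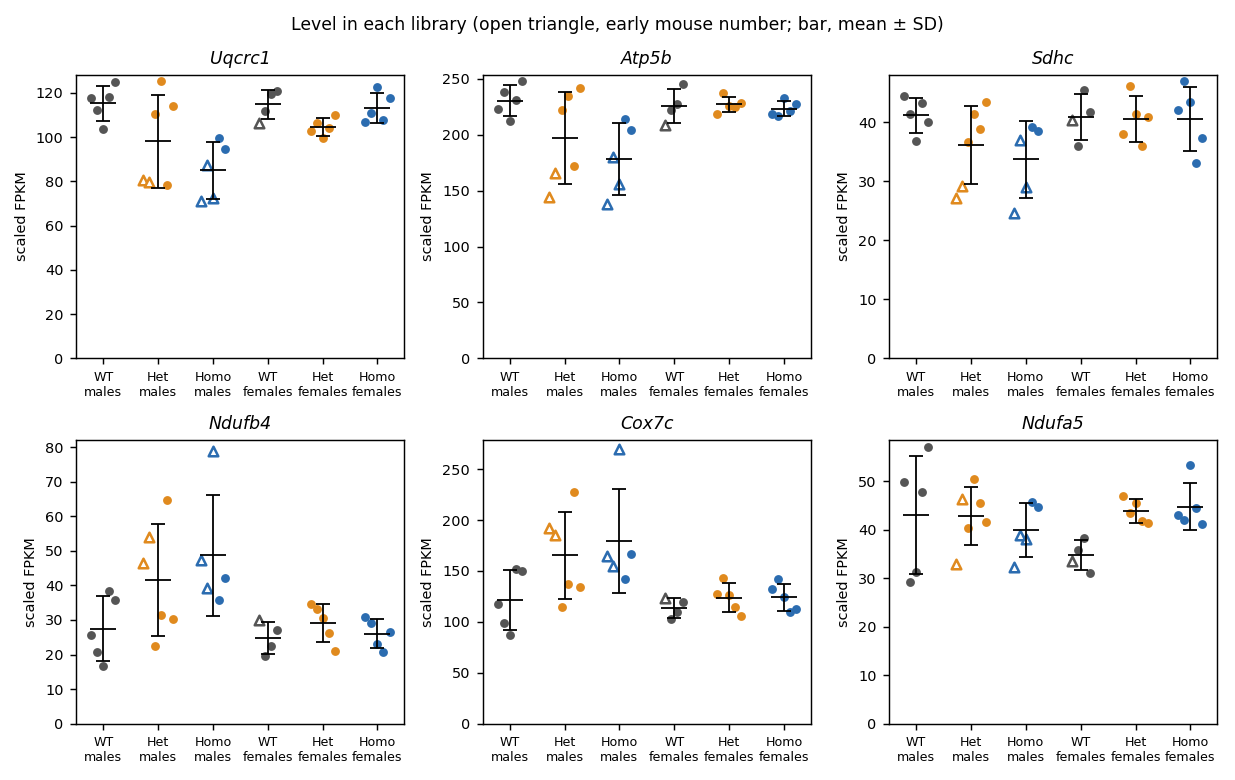
Scaled FPKM of *Uqcrc1*, *Atp5b*, *Sdhc*, *Ndufb4*, *Cox7c* and *Ndufa5* in each library, by group, with the mean and SD as bars and early mouse numbers as open triangles. Early Homo and Het males are at the low end for *Uqcrc1*, *Atp5b* and *Sdhc*. The female groups overlap except in *Ndufa5*, where WT females lie under the Het and Homo females.

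Calls among all genes tested in this contrast were 1.55% higher, 1.27% lower and 2.82% in either direction, against 0, 1 and 1 of 80 (1.25%) in the chain. At an unadjusted p under 0.05 there were 22 genes of the chain (27.5%), 12 higher and 10 lower, against 22.5% of all genes. None exceeded 1.5-fold with an adjusted p under 0.05, against 1.81% of all genes. The median log2 difference was 0.03 in the chain and 0.03 over all genes, with 46 genes above 0 and 34 below. This median was 0.12 without scaling between libraries, which alone moves every gene by 0.08, and it lay between −0.04 and 0.10 when single libraries were left out, below 0 without Homo-M-0109, WT-M-0177 or WT-M-0178.

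Most roles held genes on both sides of WT. The F1 part of ATP synthase holds the catalytic sites. Of its 5 subunits, grouped here as the F1 head with the central stalk included, 3 were below WT and the median was −0.39. The lower ones were *Atp5b*, the alpha subunit *Atp5a1* (−0.43, SE 0.158, adjusted p = 0.108) and the delta subunit *Atp5d* (−0.43, SE 0.146, adjusted p = 0.0846), whereas the small *Atp5e* was at 0.68 (SE 0.267, adjusted p = 0.133). The 8 stalk and membrane subunits of ATP synthase were all above WT, with a median of 0.17 and *Atp5mpl* highest (0.58, SE 0.206, adjusted p = 0.101). *Atp5g1*, *Atp5g2* and *Atp5g3*, which encode the same mature c ring protein, had a median of −0.22. None of these 16 genes passed the test. In complex I, 6 of the 7 core subunits that carry the flavin and iron-sulfur clusters were below WT (median −0.12), among them *Ndufs1* (−0.18, adjusted p = 0.297) and *Ndufv1* (−0.12, adjusted p = 0.435), and the median of the 29 accessory subunits was 0.03. Complex II had a median of −0.15, with *Sdha* at −0.22 (adjusted p = 0.207) and the iron-sulfur subunit *Sdhb* at −0.08 (adjusted p = 0.631). In complex III, *Uqcrfs1* (0.06, adjusted p = 0.728) and the cytochrome c1 gene *Cyc1* (−0.08, adjusted p = 0.602) had small differences, and 4 of 5 small subunits were above WT (median 0.18). In complex IV, 10 of 13 genes were above WT (median 0.19), although *Cox5a* was at −0.33 (adjusted p = 0.162). Without scaling between libraries the medians of the F1 head (−0.30) and of the stalk and membrane subunits (0.25) kept their signs, whereas with late mice alone they were −0.10 and 0.15 and 2 of the 8 stalk and membrane genes were below 0.

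**Figure D4:**
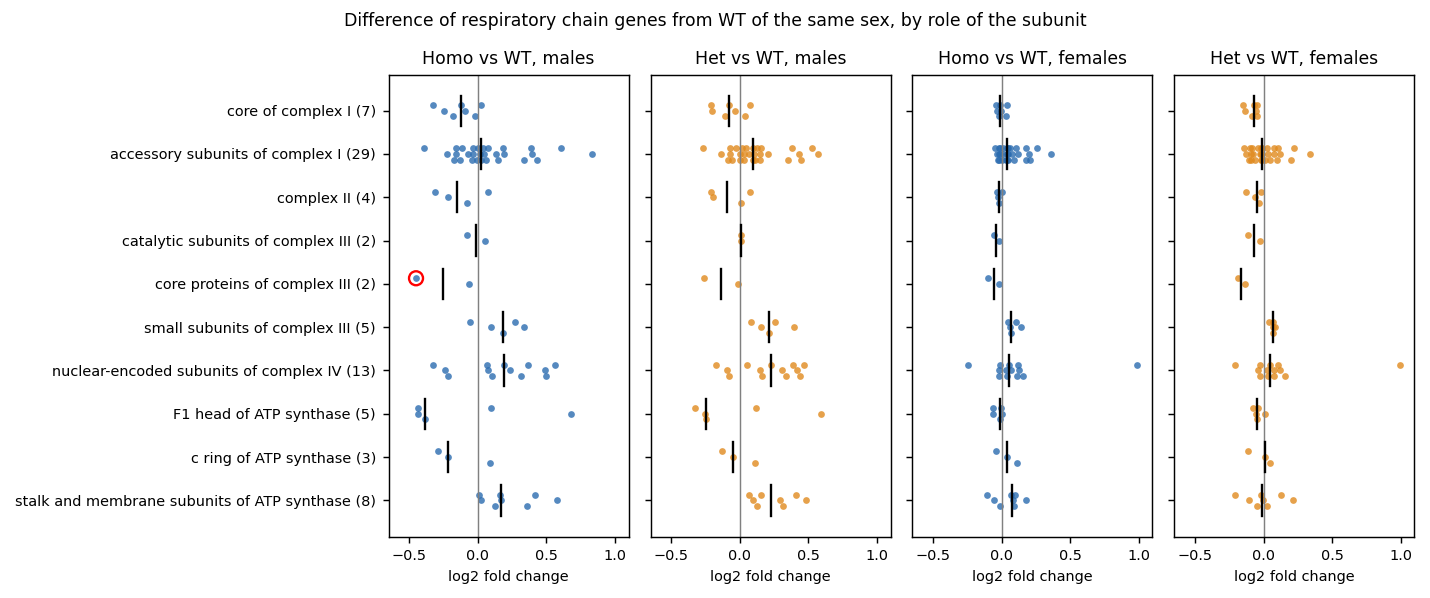
Log2 fold difference from WT of the same sex for each gene, grouped by the role of the subunit, with 1 point per gene, the median as a black bar and the 1 gene that passed the test circled in red. In Homo males the median of the F1 head lies left of 0 (−0.39), with 2 of its 5 genes to the right, and the 8 stalk and membrane subunits all lie right of 0 (median 0.17), and in females the medians of all roles lie between −0.16 and 0.07.

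*Atp5b* had the lowest adjusted p of complex V. It was at 223, 238.3, 212, 231 and 248 scaled FPKM in WT males and at 138, 180, 156, 214 and 204 in Homo males, with 144–242 (median 197.5) in Het males. All Homo males but Homo-M-0189 were under the lowest WT male, and the difference was −0.39 (SE 0.118, adjusted p = 0.0635). Early Cre-positive males were at the low end here too, with 138–180 against 172–242 in late ones. Female mice had 208.3, 222, 227 and 245 in WT, 219, 237, 226, 225 and 229 in Het, and 219, 217, 233, 221 and 227.8 in Homo groups, which overlapped fully.

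*Ndufb4*, an accessory subunit of the membrane arm of complex I, had the largest difference between Homo and WT males. In WT males it was at 25.5, 20.8, 16.7, 38.4 and 35.8 scaled FPKM, in Het males at 22.4–64.8 (median 38.9) and in Homo males at 47.5, 39.1, 79.0, 35.8 and 42.2. All Homo males but Homo-M-0189 were above the highest WT male, and Homo-M-0109 was far above the rest. The difference was 0.83 on the log2 scale (SE 0.248, adjusted p = 0.0585). It ran from 0.55 to 0.97 over 24 alternatives, which include leaving out single libraries. *Ndufb4* values are uncertain, since its processed pseudogene *Ndufb4c* had a mean of 55.6 scaled FPKM in WT, 85.8 in Het and 89.9 in Homo males. Fragments could have been assigned to either, but their sequences were not compared and this was not tested. In females *Ndufb4* was at 30.0, 19.6, 22.4 and 27.2 in WT, 34.6, 33.1, 30.5, 26.2 and 20.98 in Het, and 30.8, 29.0, 23.1, 20.8 and 26.5 in Homo mice, with overlap between the female groups.

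*Cox7c*, a small membrane subunit of complex IV, led its complex. It was at 117, 98.8, 86.8, 152 and 150 scaled FPKM in WT males and at 164, 155, 270, 142 and 167 in Homo males, a difference of 0.56 (SE 0.172, adjusted p = 0.0640). Only Homo-M-0189 lay inside the WT range, and Homo-M-0109 lay far above the others. Over 24 alternatives, which include leaving out single libraries, the difference ran from 0.38 to 0.66. Female values were 123, 102, 109.2 and 119 in WT, 127, 143, 127, 115 and 106 in Het, and 132, 142, 124, 110 and 113 in Homo mice, which overlapped. *Sdhc*, which anchors complex II in the membrane, was at 44.5, 41.4, 36.8, 43.2 and 40.1 in WT males and at 24.6, 37.0, 29.1, 39.2 and 38.6 in Homo males. Het males had 27.1–43.4 (median 37.8), and the lowest values were again those of early mice. In females *Sdhc* was at 40.4, 36.1, 45.6 and 41.8 in WT, 38.0, 46.2, 41.4, 36.1 and 40.9 in Het, and 42.1, 47.0, 43.4, 33.1 and 37.3 in Homo mice. The difference of Homo from WT males was −0.31, and the groups overlapped in both sexes.

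In Het against WT males no gene of the chain passed limma's test, against 0.172% of all genes, and 16 (20%) had an unadjusted p under 0.05, against 14.2%. Of these 16, 12 were above WT and 4 below (*Uqcrc1*, *Atp5b*, *Atp5a1* and *Ndufs1*). The median was 0.08 in the chain and 0.01 over all genes, with 56 genes above 0. It was 0.15 without scaling between libraries and −0.01 with a correction for GC content and length, and leaving out single libraries moved it from 0.0023 (WT-M-0178) to 0.15 (WT-M-0258), with 0.03 without WT-M-0177 and 0.04 without Het-M-0203. *Ndufb9*, an accessory subunit of the membrane arm of complex I, was at 80.6, 73.9, 70.3, 126 and 103 scaled FPKM in WT males, 88.3–171 (median 117) in Het males and 103, 110, 169, 90.1 and 101 in Homo males. Het and WT males overlapped, and their difference was 0.43 (SE 0.157, adjusted p = 0.265). In females *Ndufb9* was at 108.98, 74.3, 93.3 and 92.9 in WT, 102, 103, 81.7, 89.5 and 86.0 in Het, and 93.6, 111, 92.3, 92.3 and 82.6 in Homo mice. *Cox7c* was at 115–227.9 (median 161) in Het males, 0.44 from WT (SE 0.165, adjusted p = 0.273). *Atp5mpl*, a small membrane subunit of ATP synthase, was at 71.6, 60.7, 53.6, 96.0 and 101 in WT males, 58.0–148 (median 111) in Het males and 104, 98.7, 182, 94.0 and 95.6 in Homo males. Het-M-0197 lay at the low end of the WT range and Het-M-0203 was highest, and the difference was 0.48 (SE 0.197, adjusted p = 0.302). Female *Atp5mpl* was at 78.3, 65.2, 68.5 and 61.9 in WT, 76.3, 80.0, 69.6, 77.1 and 70.8 in Het, and 72.8, 94.4, 71.2, 62.0 and 67.3 in Homo mice. The contrasts of Het and Homo males share their WT mice, so like values in both are not separate observations. For the same genes the median of the F1 head was −0.25 in Het and −0.39 in Homo males, and that of the stalk and membrane subunits 0.23 and 0.17. Compared directly, Homo and Het males gave no call in the chain, with 1 gene at an unadjusted p under 0.05 (*Atp5s*), against 3.85% of all genes, and 0.0% of all genes passed the test.

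In females the chain showed little difference by genotype. No gene passed limma's test in Homo against WT (0.071% of all genes did) or in Het against WT (0.136% of all genes did). The same 2 genes, *Cox6a2* and *Ndufa5*, had an unadjusted p under 0.05 in each contrast, against 3.49% of all genes in Homo and 3.95% in Het, and both contrasts share the WT females. Medians over the chain were 0.03 in Homo and −0.02 in Het females, against 0.00 and 0 over all genes. Without single libraries they ran from −0.0029 to 0.07 in Homo and from −0.05 to 0.01 in Het females, on both sides of 0. Homo against Het females gave no call and no gene at an unadjusted p under 0.05, against 0.0118% and 2.06% of all genes.

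*Ndufa5*, an accessory subunit of the peripheral arm of complex I, was the one gene of the chain whose Het or Homo females did not overlap WT females. It was at 33.7, 35.9, 38.3 and 31.2 scaled FPKM in WT females, at 47.0, 43.4, 45.6, 41.9 and 41.5 in Het females and at 43.1, 41.9, 53.3, 44.6 and 41.2 in Homo females. Every Cre-positive female was above every WT female, while Het and Homo females overlapped. Taken contrast by contrast, such a gap was found in 1.25% of the chain. It was found in 1.62% of all genes in the Homo contrast and 1.49% in the Het contrast, so the chain did not exceed the share of all genes. The differences were 0.36 in Homo (SE 0.150) and 0.34 in Het females (SE 0.150), each with an adjusted p of 1 in limma's test. In males *Ndufa5* was at 49.8, 29.3, 31.4, 47.7 and 57.2 in WT, at 33.0–50.4 (median 43.5) in Het and at 32.2, 39.0, 38.1, 45.8 and 44.8 in Homo mice. The WT males spanned all of the Homo males, and the interaction of sex with Homo was −0.43 (adjusted p = 0.534).

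*Cox6a2* had the largest fitted difference in females, at a low level. It was at 0.882, 2.5, 2.00 and 1.17 scaled FPKM in WT females, 2.49, 3.79, 2.94, 6.76 and 1.54 in Het and 2.55, 4.03, 3.61, 3.63 and 2.13 in Homo females. The groups overlapped, and the differences were 0.99 in Homo (SE 0.380, adjusted p = 1) and 0.99 in Het (SE 0.380, adjusted p = 0.896). Male *Cox6a2* was at 2.62, 3.15, 1.83, 1.00 and 1.91 in WT, 1.61–4.52 (median 2.66) in Het and 1.61, 1.93, 3.67, 3.60 and 2.21 in Homo mice, again with overlap. *Ndufb7*, an accessory subunit of complex I, was at 36.1, 35.5, 36.6 and 30.8 in WT females, at 38.1, 42.7, 37.8, 31.0 and 34.4 in Het and at 36.6, 49.0, 48.7, 38.7 and 36.4 in Homo females. Homo-F-0201 and Homo-F-0228 stood above the rest, and the difference of Homo from WT females was 0.26 (SE 0.142, adjusted p = 1). In males *Ndufb7* was at 46.7, 32.1, 33.1, 48.4 and 55.4 in WT, 36.0–48.9 (median 38.7) in Het and 30.5, 38.0, 41.4, 43.7 and 36.9 in Homo mice, with no separation of the groups.

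Tests of the sexes against each other called no gene of the chain. The interaction of sex with Homo gave 0.0% of all genes and none of the 80, with 6 at an unadjusted p under 0.05 (7.5%, against 9.29% of all genes). *Ndufb4* was the 1 gene of these with a higher male difference (0.76, adjusted p = 0.535), and *Uqcrc1*, *Atp5b* (−0.37, adjusted p = 0.528), *Ndufb7*, *Ndufa5* and *Atp5d* were the 5 with a lower one. The interaction with Het called 0.0% of all genes and none of the 80, with none at an unadjusted p under 0.05, against 4.53%. Between WT males and WT females no gene of the chain was called and none had an unadjusted p under 0.05, against 0.0473% and 2.91% of all genes. The median of that contrast was 0.07 with 64 of 80 genes above 0, against 0.01 over all genes. It was 0.0026 without WT-M-0258 and 0.0087 without WT-M-0202, 0.16 without WT-M-0178 and 0.0054 with the correction for GC content and length.

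Early and late numbered Cre-positive males differed in 10 genes of the chain, 9 lower and 1 higher in the early mice, in a limma fit with genotype as a term (5 early against 6 late). Over all genes 5.81% were lower and 8.74% higher, 14.6% in all, and 12.5% of the chain was called. At an unadjusted p under 0.05 there were 23 genes of the chain (28.8%), 5 higher and 18 lower, against 33.8% of all genes. Among the lower genes were the large subunits *Atp5a1* (−0.63, SE 0.147, adjusted p = 0.0270) and *Atp5b* (−0.45, SE 0.111, adjusted p = 0.0295) of the F1 head, its delta subunit *Atp5d* (−0.47), the c ring gene *Atp5g2* (−0.80, SE 0.182, adjusted p = 0.0254), *Sdhc* (−0.45), the complex IV subunit *Cox5a* (−0.48) and the complex I accessory subunits *Ndufa9* (−0.30) and *Ndufa13* (−0.49). *Atp5s* was the higher one (0.38, SE 0.106, adjusted p = 0.0386), and *Uqcrc1* was at −0.37 (SE 0.120, adjusted p = 0.0576). Of these, *Atp5g2* and *Atp5a1* exceeded 1.5-fold, against 7.42% of all genes. The median of the chain was −0.06, against 0.10 over all genes, and it was 0.09 without scaling between libraries, which moves every gene by 0.15. Without single libraries it ran from −0.13 (Homo-M-0109) to 0.0030 (Homo-M-0093). The count of 10 was 26 without Het-M-0203, between 1 and 5 without Homo-M-0093, Homo-M-0109, Homo-M-0190, Het-M-0197 or Het-M-0199, and 0 without Het-M-0100, Het-M-0108, Het-M-0210 or Homo-M-0189. The share of all genes called was not computed with single libraries left out, so these counts cannot be set against it. Mouse number is a label only, with no batch, date or litter given, and it is partly confounded with genotype.

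By role, all 5 small subunits of complex III were above the late mice in this fit (median 0.27), as were 8 of 13 genes of complex IV (median 0.12), whereas all 7 core subunits of complex I (median −0.14), all 4 genes of complex II (−0.20) and 4 of 5 of the F1 head (−0.45) were below. Without scaling between libraries, the median of the complex I core was 0.01, and the other medians kept their signs (0.42, 0.27, −0.05 and −0.30). Split by length, the median was 0.23 in the 26 shortest genes, −0.08 in the middle and −0.17 in the 27 longest. Over the 80 genes, the log2 difference and transcript length had a Spearman rho of −0.416, against −0.005 over 12592 protein-coding genes. The same measure was −0.347 (−0.022 over protein-coding genes) in Homo and −0.423 (−0.128) in Het against WT males, −0.413 (−0.076) and −0.413 (0.085) in females, and −0.531 (−0.039) between WT males and WT females. The 80 genes share their libraries in each contrast, so these values describe the libraries.

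**Figure D5:**
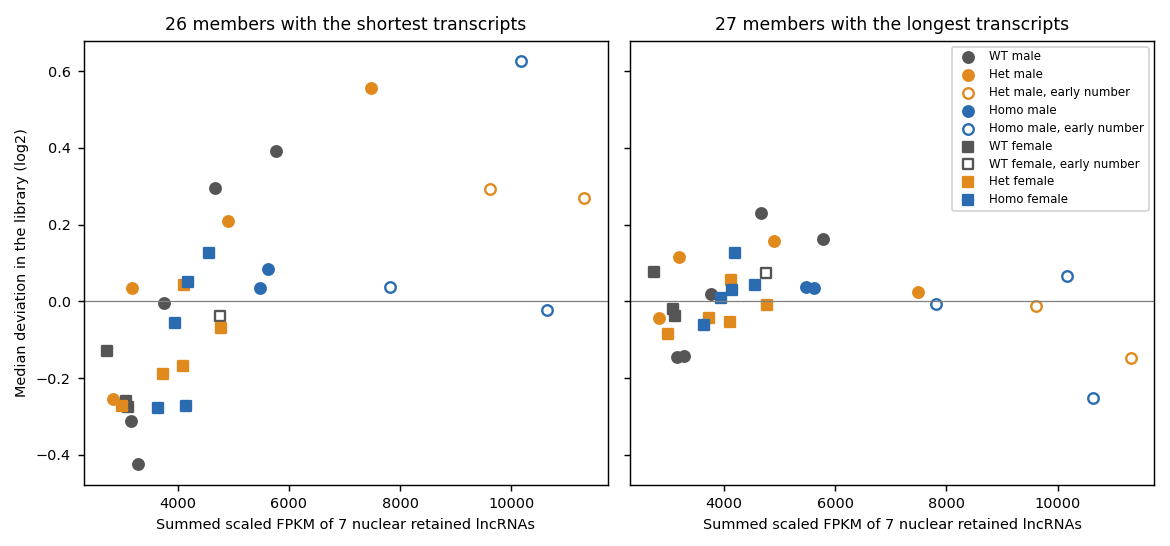
Median deviation (log2) of the 26 shortest and of the 27 longest genes of the chain in each of the 30 libraries, against the summed level of 7 nuclear retained lncRNAs in scaled FPKM, with early numbers open. Early Cre-positive males lie at 7818–11311 on the horizontal axis, where the short genes reach 0.63 (Homo-M-0109) and the long genes −0.25 (Homo-M-0093).

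The other genes of mitochondrial energy metabolism were taken from lists that are not part of the 80. Their counts stand beside 2.82% of all genes called in Homo against WT males and, in early against late males, 5.81% lower and 8.74% higher. Of the 13 chain subunits encoded in mitochondrial DNA, 1 was higher in Homo males, *mt-Atp8*, which encodes a small membrane subunit of ATP synthase, at 412 ± 46.2 (SD, n = 5) against 259 ± 28.4 scaled FPKM in WT (SD, n = 5; 0.67 on the log2 scale, adjusted p = 0.0381 by limma). The median of the 13 was 0.40 in Homo and 0.21 in Het males and 0.30 and 0.36 in Homo and Het females, with no other call in these contrasts. In the tricarboxylic acid cycle, *Mdh2*, the mitochondrial malate dehydrogenase, was the 1 of 17 genes called in Homo males, at 54.0 ± 9.34 (SD, n = 5) against 73.3 ± 4.92 in WT (SD, n = 5; −0.45, adjusted p = 0.0309 by limma), and the median was −0.22. In glycolysis, *Gpi1*, glucose-6-phosphate isomerase, was the 1 of 16 genes called in Homo males (−0.59, SE 0.132, adjusted p = 0.0171), with a median of −0.41. In early against late males 10 glycolytic genes were lower and 1 was higher (median −0.59), and 6 genes of the tricarboxylic acid cycle were lower and 1 higher (median −0.28). None of these 33 genes was called in Het males or in females. Of 7 further chain genes outside the name rule, *Cox8b* was lower in Homo (adjusted p = 0.0121) and Het males (adjusted p = 0.0245), and it was at 1.01 ± 0.809 scaled FPKM in WT males (SD, n = 5) and at 0 in every Het and Homo library. None of 50 assembly factors, 13 regulators of mitochondrial biogenesis, 14 antioxidant genes, 78 mitochondrial and 82 cytosolic ribosomal proteins and 20 proteasome subunits was called in the 4 contrasts against WT.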

How the data were processed

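RNA of microglia sorted from single mice was sequenced by the authors (paired reads from SMARTer v4 and Nextera XT libraries), and 30 libraries of 6 groups were used as their labels name them. The protocol in the labels describes cultured microglia from newborn mice, and the sorting described in the study's methods was followed here. The authors mapped the reads to mm10 with OSA4, obtained gene levels from RSEM with an Ensembl gene model, and deposited linear FPKM, in which short transcripts rest on fewer fragments. The table also holds 6 columns that match no listed sample, which were not used. Comparisons of the study's own were not used. Read totals are not kept in FPKM. From the steps between low values, each library had 0.669 to 1.41 times the depth of the median library. Absolute depth is unknown, and single values carry no counting error.

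Size factors were medians of ratios, taken over genes whose mean FPKM reached 1. After division by them, log2(FPKM + 0.1) of the 16897 genes whose mean reached 0.1 was fitted with limma 3.58.1 in R 4.3.3, with all 6 groups in 1 model, an intensity trend and Benjamini-Hochberg adjustment over all genes. Fold changes on this scale understate those of low genes. An adjusted p below 0.05 was called. All 10 comparisons were made over mice, and early and late numbered Cre-positive males were compared with genotype as a term. Symbols, biotype, length and GC content came from the table and GENCODE on GRCm38, promoters from RefSeq (GRCm38.p6), and Python 3.11.15 was used for the rest. The script for the fit was tested on simulated data.

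The genes and lists were chosen with earlier results of these data known. Values in every library are given for the highest and lowest gene, the gene of lowest adjusted p in each complex in Homo against WT males, the 3 of lowest adjusted p in the other contrasts against WT (*Ndufb4* being the third in Het females), and the isoform pairs *Cox4i1* and *Cox4i2*, *Cox6a1* and *Cox6a2*, *Cox7a1* and *Cox7a2*, *Ndufa4* and *Ndufa4l2* as far as they were kept. Core subunits are given with their fold changes. The values of 1 gene are not reported here. Alternatives were other pseudocounts (1, 0.01), a mean FPKM of at least 1 or no filter, no scaling, quantile normalization, array weights, a 1.5-fold threshold, only the groups compared, the number range as a covariate, late mice alone, and leaving out each library. A correction for GC content and length, and late mice without Het-M-0203, were added after the data were seen.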

Additional observations from a re-analysis of the deposited data

Results flagged for a closer look

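In 102 groups of 4 to 6 libraries, 9 had a highest or lowest library whose gap to the nearest other exceeded 0.71 of the range of the group (the limit for 5 libraries), and chance alone gives this in about 1 of 20 groups. Homo-M-0109 stood above the other 4 Homo males in *Ndufb4* (79.0 scaled FPKM, others 35.8–47.5), *Cox7c* (270, others 142–167), *Ndufb9* (169, others 90.1–110), *Atp5mpl* (182, others 94.0–104), *Cox4i1* (281, others 175–187) and *Cox7a2* (104, others 63.1–73.1). These genes were measured in the same library, which also had the highest median deviation of the 26 shortest genes of the chain in its group, at 0.63 on the log2 scale, against −0.02 to 0.08 in the others. Homo-M-0093 had the lowest median deviation of the 27 longest genes, at −0.25, against −0.01 to 0.07. Among Homo females, Homo-F-0228 stood above the others in *Ndufa5* (53.3 scaled FPKM, others 41.2–44.6).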

How the results depend on the processing

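The call in Homo against WT males was not stable, and the other 8 genotype and sex comparisons gave 0 genes of the chain under all alternatives run. The 1 gene called (0 higher, 1 lower) became 3 with a mean FPKM of at least 1 (*Uqcrc1*, *Atp5b*, *Ndufb4*), 3 with quantile normalization (*Uqcrc1*, *Atp5b* lower, *Cox7c* higher), 4 with array weights and 7 with a correction for GC content and length (6 higher, 1 lower), which was chosen after the data were seen. It became 0 with a 1.5-fold threshold, with only the groups compared, with the number range as a covariate, with late mice alone and with late mice without Het-M-0203, also added later. Leaving out each library gave 0 to 8 genes: 8 without Homo-M-0189, 5 without WT-M-0202, 2 without Homo-M-0190 and 0 without Homo-M-0093, Homo-M-0097, Homo-M-0109, WT-M-0176, WT-M-0177 or WT-M-0258. *Uqcrc1* stayed below WT in all 24 alternatives (−0.51 to −0.25, adjusted p 0.0140 to 0.642 by limma) and passed the threshold in 13. In early against late males, the 10 genes became 0 with no filter, 4 without scaling (1 higher, 3 lower), 29 with array weights (14 higher, 15 lower), 2 with a 1.5-fold threshold and 27 with the GC content and length correction (3 higher, 24 lower), and leaving out each library gave 0 to 26 genes. It was 26 without Het-M-0203, 5 without Het-M-0197, 3 without Het-M-0199, 2 without Homo-M-0109 or Homo-M-0190, 1 without Homo-M-0093 and 0 without Het-M-0100, Het-M-0108, Het-M-0210 or Homo-M-0189. Apart from the 1.5-fold threshold, the share of all genes called was computed for the main fit alone. These counts therefore cannot be set against all genes, and do not show whether the chain moved apart from other genes. The cause of these shifts was not tested. The differences recomputed for single genes, 24 in all, kept their sign throughout. They were chosen for a low adjusted p in these same libraries, so a kept sign is no separate check. No paired analysis was possible because mouse numbers are unique and the groups share none. Limits are the few mice per group, FPKM without read totals, short transcripts that vary most between libraries, early numbers that occur in Cre-positive males and 1 WT female alone, and the pseudogene of *Ndufb4*.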

Other observations

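Energy and housekeeping genes outside the chain also differed between early and late numbered Cre-positive males, in the same limma fit with Benjamini-Hochberg adjustment. Lower in early mice were the citrate synthase gene *Cs* and *Mdh2* among others of the tricarboxylic acid cycle, the thioredoxin reductases *Txnrd1* and *Txnrd2* of 14 antioxidant genes, and 5 of 20 proteasome subunits (*Psmb3*, *Psmb7*, *Psmc1*, *Psmc2*, *Psmc5*). In glycolysis *Hk3* (0.39 on the log2 scale, adjusted p = 0.0224) was the 1 gene higher, beside 10 lower ones such as *Gapdh*, *Pkm* and *Ldha*. Of 14 assembly factors of complex I, *Foxred1* and *Ndufaf6* were higher. Of 22 assembly factors of complex IV, 2 were higher and *Taco1*, a translational activator of mitochondrial Cox1, was lower. The mitochondrial DNA polymerase gene *Polg* was the 1 of 13 biogenesis regulators called, and was higher. Of the 78 mitochondrial ribosomal proteins, 3 were higher and 4 lower, and of the 82 cytosolic ones, 1 was higher and 2 lower. Nuclear retained lncRNAs were higher in 4 of 6 tested (*Malat1*, *Neat1*, *Ftx*, *Dleu2*), and over all genes 14.6% were called. What else differed between mice of early and late number is not given in the sources used here and was not tested.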
